A study of Homo sapiens with 6 samples.

Results

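The genes described here are 45 that encode the digestive enzymes of the lysosome, 4 of its membrane proteins, a pair of transcription factors that act on lysosomal genes, and the subunits and accessory proteins of the vacuolar proton pump (V-ATPase). They were listed by name rather than by a cutoff on their values, but earlier results of these data were known. They are 45 of the 62696 annotated genes in each count file. All 45 were found, and all passed the filter on low counts. By role they comprise 11 cathepsins and other proteases, 8 enzymes that act on glycans (7 glycosidases and 1 sulfatase), 4 lipid-degrading enzymes or activators, 4 membrane proteins, 2 transcription factors and 16 V-ATPase members. The measurements are poly(A) RNA-Seq counts from 6 libraries of DMS53, an established small cell lung cancer (SCLC) line with neuroendocrine (NE) features. In the 3 OC2-OE libraries the cells carried a lentivirus that constitutively expresses ONECUT2 (OC2), a homeobox transcription factor, with an mGFP tag. In the 3 control libraries the cells carried the empty pLenti-C-mGFP-P2A-Puro vector. Both groups were selected with puromycin, so the controls share the vector backbone and the selection, and the comparison rests on a single cell line. The study describes the replicates as independent experiments, but neither it nor the labels say whether these were separate transductions, so p-values measure the spread between these libraries.

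Lysosomes break down proteins, glycans and lipids in an acidic lumen. Most of the enzymes are made in the endoplasmic reticulum, tagged with mannose 6-phosphate in the Golgi and carried to the lysosome by receptors. The acid is supplied by the V-ATPase, in which a cytosolic V1 sector hydrolyses ATP and turns a rotor in a membrane V0 sector that moves protons. V-ATPase also acidifies endosomes, the Golgi and the secretory granules of NE cells. The basic helix-loop-helix factors TFEB and TFE3 bind E-box motifs, among them the CLEAR element found near the start of many lysosomal genes.

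The libraries held 16533284 to 19099337 counts each. ONECUT2 itself was at 24.9, 24.6 and 24.2 CPM, counts per 1000000 counts, in control replicates 1 to 3 and at 3863, 3974 and 3994 CPM in the OC2-OE replicates. Reads from the vector copy and from the resident gene were not separated. NE markers were detected in both groups, all 7 of 7, but 5 of them were lower in OC2-OE, among them NCAM1, a surface adhesion molecule that was 3.99-fold lower. The remaining 2, the granule protein CHGA and the ubiquitin hydrolase UCHL1, were higher, 2.08-fold and 1.33-fold. Libraries of one group differed from each other by 1.32 to 2.18 times their sampling variance, and libraries of different groups by 108 to 120 times. The change was therefore broad: of 17307 genes tested with edgeR's quasi-likelihood test, 27.8% were called higher and 28.7% lower at an adjusted p under 0.001.

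The comparison asked how the RNA of lysosomal and V-ATPase genes differed after enforced OC2 expression. Of the 45 genes, 28 were higher in OC2-OE (62.2%, beside 27.8% of all tested genes), 9 were lower (20.0%, beside 28.7%) and 8 were not called. Of the 29 lysosomal genes 24 were higher, 1 was lower and 4 were not called, with a median log2 fold change of 0.68. Of the 16 V-ATPase genes 4 were higher, 8 were lower and 4 were not called, with a median of -0.11. The median over all tested genes was 0.01. With scaling by library size only, the V-ATPase median was -0.061 and that of all tested genes 0.058. The 3 values of each group did not overlap for 41 of the 45 genes (91.1%), against 73.2% of all tested genes. A change of at least 0.5 on the log2 scale was reached by 22 called genes (48.9%, against 32.6% of all tested genes), 20 of them higher and 2 lower. These shares describe the chosen genes, and no test compared them with other genes.

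**Figure D1:**
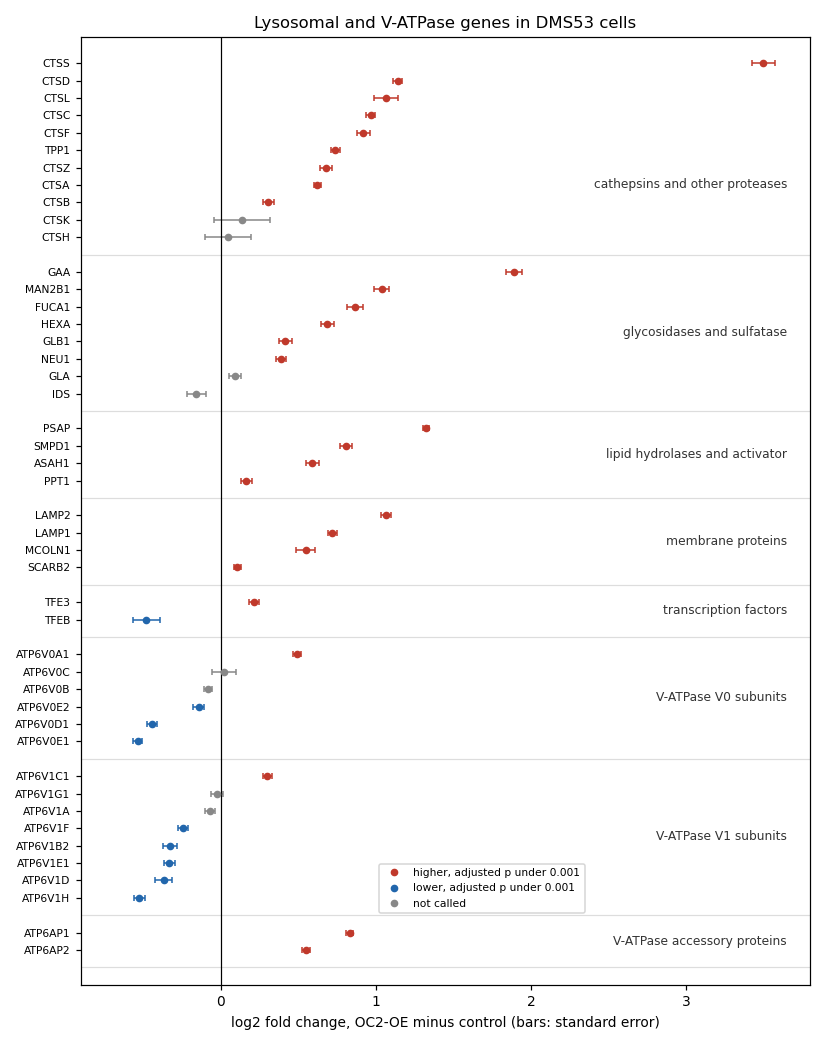
Log2 fold change (OC2-OE minus control) of each of the 45 genes by role, with the standard error as bars; red points were called higher, blue points lower and grey points neither by edgeR's quasi-likelihood test (3 libraries per group). The hydrolase groups lie mostly to the right of 0, up to 3.50 for CTSS, while most V0 and V1 subunits lie to the left, down to -0.53 for ATP6V0E1.

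Because TFEB and TFE3 read DNA near the transcription start, the promoters of the genes were searched for E-box motifs. A match does not single out these factors. RefSeq promoter windows on GRCh38.p14, from 250 bases before to 50 bases after the start, were held for 33 of the 45 genes. The E-box core CACGTG, which reads the same on both strands, was present in 11 of the 33 (33.3%), against 8.77% of 27305 genes with a window. The longer TCACGTGA, the inner letters of the CLEAR palindrome, which contains the E-box core and also reads the same on both strands, was present in 6 of 33 (18.2%), against 1.18%. It occurred in 4 of 22 lysosomal genes and in 2 of 11 V-ATPase genes, 18.2% of either set. Because the CLEAR element is known from lysosomal genes, a high share in a list of such genes was fixed in advance. These shares describe the genome sequence and do not bear on the response to OC2. The ONECUT core ATCGAT was found in the windows of 0 of 33 genes, against 0.938% of genes. At so low a share a list of this size would often hold none. Only this exact core was searched, so the 0 does not show a lack of ONECUT sites.

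The 6 promoters that hold TCACGTGA are shown over 100 bases, from 90 before to 10 after the start, 5′ to 3′ on the strand of the gene, with the motif in capitals, because they include genes of both directions and 1 that was not called. They lie at chr17:80101491-80101590 (+) for GAA, chr13:113297149-113297248 (+) for LAMP1, chr19:7522534-7522633 (+) for MCOLN1, chr20:45891245-45891344 (+) for CTSA, chr16:67481148-67481247 (-) for ATP6V0D1 and chr9:114587679-114587778 (+) for ATP6V1G1.
GAA: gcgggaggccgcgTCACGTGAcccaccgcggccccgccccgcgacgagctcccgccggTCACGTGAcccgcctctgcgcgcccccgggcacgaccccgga
LAMP1: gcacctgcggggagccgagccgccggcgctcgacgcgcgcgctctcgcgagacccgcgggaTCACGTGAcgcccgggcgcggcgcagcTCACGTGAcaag
MCOLN1: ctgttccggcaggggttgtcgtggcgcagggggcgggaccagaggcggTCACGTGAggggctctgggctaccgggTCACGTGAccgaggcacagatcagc
CTSA: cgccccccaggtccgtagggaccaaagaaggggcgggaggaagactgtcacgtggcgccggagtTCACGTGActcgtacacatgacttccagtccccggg
ATP6V0D1: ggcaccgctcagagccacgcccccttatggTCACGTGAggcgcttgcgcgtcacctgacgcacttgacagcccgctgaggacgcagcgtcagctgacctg
ATP6V1G1: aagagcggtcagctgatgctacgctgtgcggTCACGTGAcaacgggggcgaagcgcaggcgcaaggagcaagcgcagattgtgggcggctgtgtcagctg
GAA, LAMP1 and MCOLN1 carry 2 copies each and CTSA, ATP6V0D1 and ATP6V1G1 carry 1. Of these genes, GAA, LAMP1, MCOLN1 and CTSA were higher in OC2-OE (log2 fold changes 1.89, 0.72, 0.55 and 0.62), ATP6V0D1 was lower (-0.44), and ATP6V1G1 was not called (-0.02, adjusted p = 0.581). A match is a stretch of letters and was not tested as a binding site.

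Among the 11 proteases, 9 were higher in OC2-OE (81.8%, beside 27.8% of all tested genes). None was lower, beside 28.7% of all tested genes, and CTSK and CTSH were not called. Cathepsin S (CTSS, chr1:150730079-150765957) had the largest change of all 45 genes. This cysteine protease is best known for trimming the invariant chain of MHC class II in antigen-presenting cells. CTSS was at 8.03, 5.02 and 5.47 CPM in control replicates 1 to 3 and at 68.7, 71.6 and 71.8 CPM in the OC2-OE replicates. Its log2 fold change was 3.50 (SE 0.0757, adjusted p = 7.87e-57), an 11.3-fold difference built on 323 counts in the controls and 3865 in OC2-OE. The lowest OC2-OE library was far above the highest control, which was replicate 1.

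As macrophages express CTSS strongly, their markers were read beside it. Of 8 monocyte and macrophage markers only CD14 and LYZ passed the filter, and their calls were higher, with log2 fold changes of 0.71 and 2.44. LYZ rested on 21 counts in the controls and 122 in OC2-OE. The leukocyte marker PTPRC had 0 and 3 counts, and TYROBP and AIF1 had 0 counts in every library. CSF1R had 15 counts in the controls and 7 in OC2-OE, and FCER1G 1 in each group. CD163 had 11 counts in the controls and 37 in OC2-OE, with groups that did not overlap, but was under the filter and not tested. The summed level of the 8 markers was 4.07 to 4.90 CPM in the controls and 8.20 to 9.66 CPM in OC2-OE. Most of it was CD14, with means of 3.60 CPM in the controls and 5.86 CPM in OC2-OE, and LYZ, with 0.401 and 2.22 CPM. The sum was higher in the group where CTSS was higher, and its part in the CTSS result was not tested. In bulk RNA, more cells of a kind and more RNA per cell cannot be told apart.

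Cathepsin D (CTSD, chr11:1752752-1764573), the main aspartic protease of the lysosome, stood at 157, 162 and 147 CPM in the controls and at 351, 332 and 344 CPM in OC2-OE. Its log2 fold change was 1.14 (SE 0.028, adjusted p = 1.84e-62). The groups were well apart, although 27.3% of its annotated exon bases are shared with other genes on the same strand, where read pairs are not counted. Cathepsin L (CTSL), a broad cysteine endopeptidase, went from 12.3, 13.9 and 11.8 CPM to 28.1, 26.8 and 24.7 CPM, a log2 fold change of 1.07 (SE 0.0772, adjusted p = 2.16e-25). CTSL has 6 named pseudogenes, and read pairs that match several places are not counted. The same limit holds for ATP6V1G1 with 7 named pseudogenes, ATP6V0E1 and ATP6V0C with 4 each, ATP6V1E1 with 3, and FUCA1 and IDS with 1 each. Cathepsin C (CTSC), the dipeptidyl peptidase that activates granule serine proteases, went from 119, 124 and 118 CPM to 238, 234 and 233 CPM. Its log2 fold change was 0.97 (SE 0.0297, adjusted p = 1.25e-58), and as in the preceding cases every OC2-OE library exceeded every control.

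The remaining 5 called proteases rose by 0.31 to 0.92 on the log2 scale. They were CTSF (0.92), the tripeptidyl peptidase TPP1 (0.74), the carboxypeptidase CTSZ (0.68), the serine carboxypeptidase CTSA (0.62), which protects GLB1 and NEU1, and CTSB (0.31), an abundant cysteine protease. CTSK, the collagen-degrading enzyme of osteoclasts, and the aminopeptidase CTSH were both scarce. CTSK was at 2.39 to 3.75 CPM in the controls and at 2.92 to 4.04 CPM in OC2-OE, a log2 difference of 0.14 (SE 0.181, adjusted p = 0.506). CTSH was at 4.0 to 5.99 and 4.79 to 5.16 CPM, a difference of 0.05 (SE 0.148, adjusted p = 0.778). The groups overlapped for both, and at these counts smaller changes could not be seen.

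Levels of the proteases were set beside each other per kilobase of annotated exon, a length that counts all isoforms of a gene. In the controls CTSA stood highest at 35.5 ± 0.485 CPM per kilobase (SD, n = 3), followed by CTSD at 27.2 ± 1.34 and TPP1 at 19.5 ± 1.14. In OC2-OE CTSD came first at 60.1 ± 1.65 CPM per kilobase and CTSA second at 54.7 ± 0.841. CTSS stood ninth of 11 in the controls at 0.896 ± 0.235 CPM per kilobase, above CTSK at 0.367 ± 0.0808. In OC2-OE it stood sixth at 10.3 ± 0.255 CPM per kilobase, between CTSB at 10.9 ± 0.374 and CTSC at 9.46 ± 0.115. This place depends on the length: in mean CPM of OC2-OE, CTSC stood above CTSS, at 235 against 70.7. In the lowest places, CTSK and CTSH differed by less than their spread in the controls, at 0.367 ± 0.0808 and 0.345 ± 0.0792 CPM per kilobase. The order of CTSA and CTSD in the controls depends on the length used. Over exon bases not shared with another gene, a length chosen after the data were seen, CTSD came first in both groups, at 37.5 ± 1.84 and 82.7 ± 2.27 CPM per kilobase, and CTSS kept its places.

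Of the 7 glycosidases and 1 sulfatase, 6 were higher in OC2-OE (75%, beside 27.8% of all tested genes). None was called lower, beside 28.7% of all tested genes. GAA (chr17:80101556-80119881), the acid alpha-glucosidase that degrades glycogen and is deficient in Pompe disease, changed most. It was at 20.2, 21.8 and 21.5 CPM in the controls and at 79.7, 77.6 and 78.0 CPM in OC2-OE, a log2 fold change of 1.89 (SE 0.0527, adjusted p = 5.67e-63). This 3.71-fold difference was the second largest of the 45 genes. The alpha-mannosidase MAN2B1 went from 35.0, 37.3 and 35.3 CPM to 70.3, 74.3 and 76.6 CPM, a log2 fold change of 1.04 (SE 0.0481, adjusted p = 2.95e-41). The alpha-fucosidase FUCA1 went from 39.0, 35.3 and 35.2 CPM to 63.1, 68.7 and 68.6 CPM, a log2 fold change of 0.87 (SE 0.0496, adjusted p = 2.76e-33). Groups were clear of each other for all of these. HEXA, the alpha subunit of beta-hexosaminidase whose loss causes Tay-Sachs disease, went from 58.2, 54.3 and 52.4 CPM to 86.2, 88.5 and 91.4 CPM, a log2 fold change of 0.69 (SE 0.0424, adjusted p = 1.25e-30).

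The beta-galactosidase GLB1 and the sialidase NEU1, which form a complex with CTSA in the lysosome, rose less, by 0.42 and 0.39 on the log2 scale. The remaining pair missed the threshold, and neither overlapped between groups. GLA, the alpha-galactosidase deficient in Fabry disease, was at 70.5 to 73.2 CPM in the controls and at 74.2 to 78.7 CPM in OC2-OE (log2 difference 0.09, adjusted p = 0.0361). IDS, iduronate 2-sulfatase, was at 28.2 to 30.9 CPM and 26.3 to 26.6 CPM (log2 difference -0.16, adjusted p = 0.0196). For IDS, 75.9% of the exon bases are shared with other genes on the same strand, so its counts come from the remainder.

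All 4 genes of lipid breakdown were higher in OC2-OE (100%, beside 27.8% of all tested genes). PSAP (chr10:71816298-71851251), the precursor of the saposins that present sphingolipids to hydrolases, was the most abundant of the 45 genes in counts. It was at 1123, 1106 and 1129 CPM in the controls and at 2820, 2787 and 2803 CPM in OC2-OE, a log2 fold change of 1.32 (SE 0.0182, adjusted p = 4.00e-96). Per kilobase of exon PSAP ranked 44 among all 17307 tested genes in the controls and 20 in OC2-OE. It supplied 41.2% ± 0.601 (SD, n = 3) of the summed CPM of the 23 luminal enzymes and activators in the controls and 51.4% ± 0.266 in OC2-OE. Without PSAP, the other 22 summed to 1601 ± 30.5 CPM in the controls and 2653 ± 26.9 CPM in OC2-OE, so the rise of the sum was not confined to it.

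The acid sphingomyelinase SMPD1 went from 68.5, 67.6 and 68.4 CPM to 115, 121 and 123 CPM, a log2 fold change of 0.81 (SE 0.0378, adjusted p = 8.46e-41). The acid ceramidase ASAH1, which acts on the ceramide that SMPD1 makes, went from 66.2, 60.2 and 61.8 CPM to 97.1, 92.6 and 94.1 CPM, a log2 fold change of 0.59 (SE 0.0406, adjusted p = 5.16e-27). PPT1, the thioesterase that removes palmitate from proteins, was the least changed, at 103, 99.1 and 101 CPM against 114, 110 and 116 CPM (log2 fold change 0.16, SE 0.0353, adjusted p = 1.90e-05). Even for PPT1 the highest control lay under the lowest OC2-OE library.

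The 4 membrane proteins were also all higher (100%, beside 27.8% of all tested genes). LAMP1 and LAMP2 are heavily glycosylated proteins that line the inner face of the lysosomal membrane. LAMP2 was at 77.8, 77.0 and 78.8 CPM in the controls and at 164, 163 and 162 CPM in OC2-OE, a log2 fold change of 1.07 (SE 0.0343, adjusted p = 1.36e-56). LAMP1 was at 116, 113 and 109 CPM and at 184, 187 and 188 CPM, a log2 fold change of 0.72 (SE 0.0314, adjusted p = 1.04e-43). Neither gene's groups came near each other. MCOLN1, a calcium channel of the lysosomal membrane, went from 21.2, 23.1 and 21.8 CPM to 32.5, 32.5 and 31.6 CPM (log2 fold change 0.55, SE 0.0637, adjusted p = 1.67e-13). SCARB2, the receptor that carries beta-glucocerebrosidase to the lysosome, changed little, from 459, 446 and 445 CPM to 483, 490 and 482 CPM (log2 fold change 0.11, SE 0.0223, adjusted p = 9.83e-06).

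**Figure D2:**
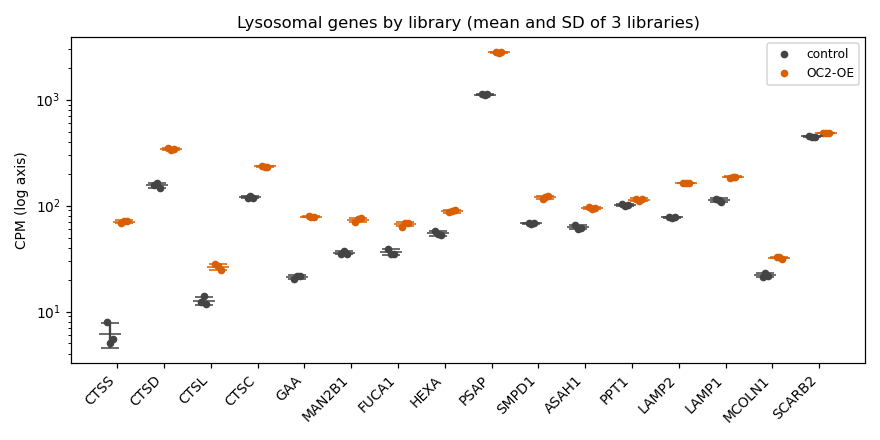
CPM (log axis) in each of the 6 libraries for 16 lysosomal enzymes, activators and membrane proteins, TFEB and TFE3 left out; points are libraries, grey for control and orange for OC2-OE, and bars are the mean and SD of 3 libraries. CTSS moves from under 10 CPM in the controls to about 70 CPM, PSAP lies above all others in both groups, and SCARB2 and PPT1 show the narrowest gaps.

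The transcription factors of lysosomal genes went in opposite directions. TFEB (chr6:41683978-41736259) was at 15.4, 15.8 and 15.4 CPM in the controls and at 10.9, 11.8 and 10.8 CPM in OC2-OE, a log2 fold change of -0.48 (SE 0.0885, adjusted p = 8.21e-07). It was the only one of the 29 lysosomal genes called lower. TFE3 (chrX:49028726-49043410) was at 118, 119 and 118 CPM and at 135, 140 and 138 CPM, a log2 fold change of 0.22 (SE 0.0327, adjusted p = 3.79e-09). Both factors are controlled mainly by phosphorylation and movement into the nucleus, which RNA counts do not measure. Of the other members of their family, MITF was scarce and not called (log2 difference -0.51, adjusted p = 0.0019), and TFEC had 9 counts in the controls and 3 in OC2-OE and was not tested.

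Of 6 V0 subunits in the V-ATPase, 3 were lower (50%, beside 28.7% of all tested genes) and 1 was higher (16.7%, beside 27.8%). The other 2 were not called. ATP6V0E1 (chr5:172983771-173035445), the small e subunit, was at 201, 201 and 206 CPM in the controls and at 139, 141 and 140 CPM in OC2-OE. Its log2 fold change of -0.53 (SE 0.0295, adjusted p = 1.56e-34) was the lowest of the 45. ATP6V0D1, the d subunit that joins the rotor to V1, fell from 155, 157 and 153 CPM to 114 CPM in each OC2-OE library (log2 fold change -0.44, SE 0.0321, adjusted p = 2.20e-25). Both subunits had no control library as low as any OC2-OE library. The second e subunit, ATP6V0E2, was at 124, 127 and 132 CPM and at 113, 114 and 119 CPM (log2 fold change -0.14, SE 0.0338, adjusted p = 1.03e-04), a call lost under 6 alternatives of scaling, test or left-out library.

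ATP6V0A1 (chr17:42458844-42522582), the a subunit typical of neurons and granules that anchors V1 to the membrane, was the exception in V0. It was at 224, 225 and 219 CPM in the controls and at 309, 311 and 319 CPM in OC2-OE, a log2 fold change of 0.49 (SE 0.0256, adjusted p = 1.51e-36). The proteolipid subunits were not called. ATP6V0B was at 326 to 361 CPM in the controls and at 318 to 321 CPM in OC2-OE (log2 difference -0.08, adjusted p = 0.00496), with the controls all above. ATP6V0C, the c subunit of the rotor ring, was at 16.2 to 18.4 CPM and at 17.3 to 18.2 CPM (log2 difference 0.02, SE 0.0779, adjusted p = 0.807), with overlapping groups. The ring holds several copies of this subunit, and 76.3% of its exon bases are shared with other genes on the same strand.

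Of 8 V1 subunits 5 were lower (62.5%, beside 28.7% of all tested genes) and 1 was higher (12.5%, beside 27.8%). The other 2 were not called. ATP6V1H, the regulatory H subunit, went from 143, 141 and 137 CPM to 99.7, 96.3 and 97.0 CPM, a log2 fold change of -0.52 (SE 0.0339, adjusted p = 6.41e-29). ATP6V1D, part of the central shaft, went from 40.1, 41.8 and 41.9 CPM to 31.6, 32.3 and 32.1 CPM (-0.37, SE 0.0553, adjusted p = 3.39e-09). ATP6V1E1, part of the peripheral stalks, went from 130, 130 and 127 CPM to 105, 102 and 101 CPM (-0.33, SE 0.0341, adjusted p = 5.26e-16). ATP6V1B2, a nucleotide-binding subunit of the head, went from 68.6, 60.1 and 65.1 CPM to 50.4, 52.1 and 52.5 CPM (-0.32, SE 0.0462, adjusted p = 4.76e-10). In each of these the lowest control exceeded the highest OC2-OE library. ATP6V1F, the other shaft subunit, fell by 0.24 on the log2 scale. ATP6V1A, the catalytic subunit, and the stalk subunit ATP6V1G1 were not called, at -0.07 (adjusted p = 0.0352) and -0.02 (adjusted p = 0.581). ATP6V1C1, which bridges the stalks to V0, was higher by 0.30 (adjusted p = 1.15e-18).

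The changes within the pump ran in both directions. None of the 16 V-ATPase members changed by 1 or more on the log2 scale, and the summed CPM of the 14 V0 and V1 subunits was 2065 ± 7.13 (SD, n = 3) in the controls and 1940 ± 4.71 in OC2-OE. By contrast both accessory proteins were higher (100%, beside 27.8% of all tested genes). ATP6AP1 (chrX:154428633-154436516), a glycoprotein needed for V0 assembly, went from 312, 307 and 318 CPM to 560, 546 and 561 CPM, a log2 fold change of 0.83 (SE 0.023, adjusted p = 2.23e-63). ATP6AP2, also known as the (pro)renin receptor, went from 208, 208 and 213 CPM to 306, 311 and 304 CPM (0.55, SE 0.0259, adjusted p = 1.40e-40). For both, all OC2-OE libraries stood far above the controls.

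**Figure D3:**
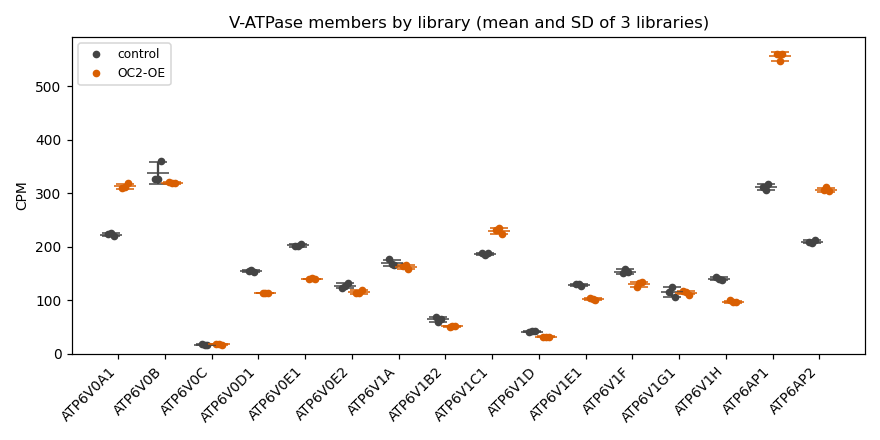
CPM (linear axis from 0) in each of the 6 libraries for the 16 V-ATPase genes; points are libraries, grey for control and orange for OC2-OE, and bars are the mean and SD of 3 libraries. ATP6AP1, ATP6AP2, ATP6V0A1 and ATP6V1C1 are higher in OC2-OE, while ATP6V0E1, ATP6V0D1 and ATP6V1H show the clearest drops.

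Several V-ATPase subunits exist as paralogs with different tissues and membranes, and 9 further paralogs were read beside the members. Of these, 7 passed the filter, 2 were higher (28.6% of those tested, beside 27.8% of all tested genes) and 3 were lower (42.9%, beside 28.7%). The largest difference was in ATP6V0A4 (chr7:138706294-138799560), the a subunit known from acid-secreting cells of the kidney and inner ear. It was at 70.7, 67.2 and 67.3 CPM in the controls and at 5.84, 6.64 and 5.87 CPM in OC2-OE, a log2 fold change of -3.48 (SE 0.071, adjusted p = 1.63e-77) or an 11.2-fold drop. ATP6V1B1, the B subunit of the same cells, had 190 counts in the controls and 24 in OC2-OE (-3.05, SE 0.277, adjusted p = 5.07e-19), with 63.1% of its exon bases shared with another gene on the same strand. The scarce paralog ATP6V1E2 was higher by 0.74 (adjusted p = 1.71e-10), and TCIRG1, the a subunit of osteoclasts, was higher by 0.64 (adjusted p = 1.76e-28).

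Put per kilobase of exon, the 4 a subunits summed to 49.0 ± 0.882 CPM per kilobase (SD, n = 3) in the controls and 47.7 ± 0.765 in OC2-OE, a difference of the order of the spread, but their makeup differed. ATP6V0A4 made up 33.8% ± 0.667 of this sum in the controls and 3.11% ± 0.222 in OC2-OE. ATP6V0A1 went from 35.1% ± 0.988 to 50.7% ± 0.398, and TCIRG1 from 25.2% ± 1.25 to 40.4% ± 0.305. ATP6V0A2 held 5.87% ± 0.259 and 5.84% ± 0.219. Of the B subunits, ATP6V1B2 made up 85.6% ± 2.25 in the controls and 97.6% ± 0.314 in OC2-OE. Over exon bases not shared with another gene its share was 68.7% ± 3.92 and 93.7% ± 0.786, so the makeup in the controls depends on the length used. Of the e subunits, ATP6V0E1 made up 87.0% ± 0.208 and 83.6% ± 0.373. These shares rest on the annotated exon length of each gene, which counts all its isoforms. Over unshared bases the shares of the a subunits changed little, with ATP6V0A4 at 33.4% ± 0.670 and 3.05% ± 0.217.

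**Figure D4:**
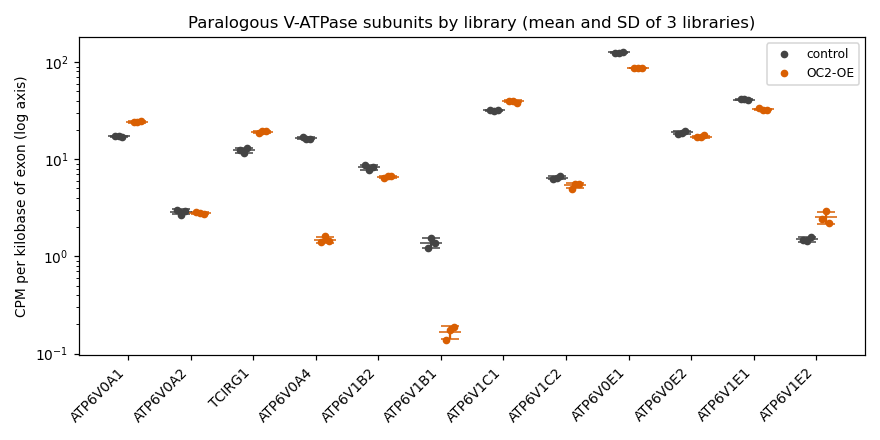
CPM per kilobase of annotated exon (log axis) in each of the 6 libraries for paralogous V-ATPase subunits; points are libraries, grey for control and orange for OC2-OE, and bars are the mean and SD of 3 libraries. ATP6V0A4 and ATP6V1B1, whose plotted level is understated by its shared exon bases, drop in OC2-OE, while ATP6V0A1 and TCIRG1 are higher.

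Of 8 genes for proteins that build or reattach the pump (assembly and RAVE-complex genes), 2 were higher, 2 were lower and 4 were not called. This is 25% in either direction, close to the 27.8% and 28.7% of all tested genes. The assembly chaperones VMA21 and TMEM199 fell by 0.41 (adjusted p = 1.32e-14) and 0.22 (adjusted p = 5.72e-04), and the rabconnectin gene DMXL2 rose by 0.19 (adjusted p = 5.69e-05).

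Lysosomal enzymes outside the 45 were also read, from lists likewise made with earlier results of these data known. Of 27 other luminal hydrolases and activators, 22 were higher (81.5%, beside 27.8% of all tested genes), 2 were lower (7.41%, beside 28.7%) and 3 were not called, with a median log2 fold change of 0.70. IDUA, which degrades glycosaminoglycans together with IDS, was higher by 1.98 (adjusted p = 2.36e-48). The cysteine protease CTSO was higher by 1.31 (adjusted p = 1.35e-25). The 2 lower genes were NAAA, an amidase of fatty acid ethanolamides, at -1.08 (adjusted p = 1.93e-35), and GGH, a gamma-glutamyl hydrolase of folates, at -0.80 (adjusted p = 5.50e-43). Of 13 other lysosomal membrane proteins, 12 were tested and 7 were higher (58.3%, beside 27.8% of all tested genes). None was lower, beside 28.7% of all tested genes, and the median log2 fold change was 0.27. The chloride-proton exchanger CLCN7 was the highest at 0.64 (adjusted p = 1.03e-31), followed by LAPTM4A at 0.49 (adjusted p = 3.16e-24) and the amino acid sensor SLC38A9 at 0.48 (adjusted p = 2.58e-12).

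The route that delivers the enzymes was mixed. A list of 10 genes was read for mannose 6-phosphate tagging and sorting, with SUMF1, which activates sulfatases, counted in it. Of these, 5 were higher (50%, beside 27.8% of all tested genes), 2 were lower (20.0%, beside 28.7%) and 3 were not called. SUMF1 was higher by 0.80 (adjusted p = 1.28e-11). GNPTG, a subunit of the tagging enzyme, was higher by 0.70 (adjusted p = 1.40e-21), and the sorting receptor SORT1 by 0.38 (adjusted p = 3.80e-25). Of the mannose 6-phosphate receptors, IGF2R fell by 0.26 (adjusted p = 2.30e-16) and M6PR was not called, at -0.01 (adjusted p = 0.744). Among cystatins, the inhibitors of cysteine cathepsins, 3 of 5 were tested. Cystatin C (CST3), which is secreted, was higher by 0.90 (adjusted p = 2.26e-48), CST6 was lower by a log2 difference of -0.73 (adjusted p = 2.78e-04) at 4.06 and 2.41 CPM, and CSTB was not called.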

How the data were processed

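Poly(A) RNA of DMS53 cells was sequenced as 3 control and 3 OC2-OE stranded libraries. The authors deposited raw counts of read pairs per gene. Per the labels and file headers, reads were aligned with STAR 2.7.9a to GRCh38 and counted with featureCounts 1.6.0 against GENCODE release 42, strand by strand; its options leave out pairs that match several places or overlap several genes. Symbols were joined by gene ID. Genes with too few counts were removed with edgeR's filterByExpr, leaving 17307, and libraries were scaled by TMM. The groups were compared with edgeR 4.0.16's quasi-likelihood test (R 4.3.3), two-sided, with Benjamini-Hochberg adjustment over all tested genes and a threshold of 0.001. The biological coefficient of variation was 2.20%. CPM are scaled by TMM. The fit was tested on simulated counts, but no outcome of that test is reported here. Full values are given for up to 4 called genes with the largest change in each role, TFEB, TFE3 and the e subunits, and up to 3 genes in each further list; genes named beyond this were chosen after their values were seen. The values of 1 gene that this rule would name are not reported here. Genes and lists were chosen with earlier results of these data known. Alternatives covered scaling, test, filter, threshold, a replicate block and leaving out each library.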

Additional observations from a re-analysis of the deposited data

How the results depend on the processing

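Over 15 settings of scaling, test, filter and libraries, 36 of the 37 called genes kept their call and none of the 37 changed sign. The exception was ATP6V0E2, which lost its call with library size only, upper-quartile scaling, DESeq2 1.42.0's Wald test, and without control replicate 3, OC2-OE replicate 1 or OC2-OE replicate 2. ATP6V0B, not called at 0.001 in the fit of all 6 libraries, was called lower without control replicate 1 (-0.11). With library size only, the median log2 fold change was 0.44 for all 45 genes, 0.73 for the lysosomal and -0.061 for the V-ATPase genes; with upper-quartile scaling it was 0.43, 0.72 and -0.069. These scalings moved the median of all tested genes by 0.050 and 0.043. Requiring a change of at least 0.5 left 2 genes called lower and 5638 genes called in all. Leaving out each library in turn gave medians of 0.38 to 0.41, 0.65 to 0.69 and -0.14 to -0.10, 8 to 10 genes lower, 28 higher, and 8944 to 9340 genes called in all. A replicate block gave 28 higher, 9 lower and 9642 called genes; same-numbered libraries deviated together with correlations of 0.001, 0.016 and 0.013, so the numbers were not taken as pairs. Depth limits CTSK and CTSH, with standard errors of 0.181 and 0.148.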

Other observations

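Genes of autophagy, which delivers cell contents to the lysosome, were read as a further list. Of 16 genes, 12 were higher in OC2-OE (75%, beside 27.8% of all tested genes), 1 was lower (VPS18, at -0.16; 6.25%, beside 28.7%) and 3 were not called by edgeR's quasi-likelihood test, with a median log2 fold change of 0.34. SQSTM1, the cargo receptor p62, was at 995, 1009 and 1022 CPM in the controls and at 2163, 2174 and 2181 CPM in OC2-OE (log2 fold change 1.11, SE 0.0186, adjusted p = 1.14e-86). The ATG8-family genes GABARAPL1 and MAP1LC3A were higher by 0.96 (adjusted p = 2.64e-71) and 0.73 (adjusted p = 1.85e-22). SQSTM1 is also a target of other stress pathways, whose part was not tested.

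Of 14 genes of nutrient sensing at the lysosomal surface, which governs TFEB and TFE3, 1 was higher (7.14%, beside 27.8% of all tested genes), 4 were lower (28.6%, beside 28.7%) and 9 were not called. The share of lower genes was thus that of the background. RPTOR, the scaffold of mTORC1, was at 181, 181 and 179 CPM in the controls and at 87.5, 92.6 and 88.6 CPM in OC2-OE (log2 fold change -1.01, SE 0.0329, adjusted p = 4.34e-56). The Ragulator subunits LAMTOR2 and LAMTOR4 were lower, at -0.38 (adjusted p = 6.38e-10) and -0.36 (adjusted p = 1.19e-09). MTOR itself was not called, at -0.06 (adjusted p = 0.0542). The fibroblast markers read as a check of the line summed to 21.1 to 23.8 CPM in the controls and 28.1 to 32.0 CPM in OC2-OE, nearly all of it COL1A1. Of 6 such markers 3 were tested. COL1A1 was higher by 0.37 (adjusted p = 7.11e-07) and PDGFRB by 2.48 (adjusted p = 8.12e-06, on 8 and 49 counts), while COL1A2 was not called, at 1.17 (adjusted p = 0.00214), with groups that did not overlap. Of the untested markers, LUM had 6 counts in the controls and 0 in OC2-OE, with groups that did not overlap. DCN had 3 counts in each group, and THY1 had 0 in every library. The part of the fibroblast markers in the results on lysosomal genes was not tested.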
